A study of Mus musculus with 10 samples.

Results

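Meiotic recombination is represented here by 8 genes that act in succession, from the making of DNA double-strand breaks to the crossover. They are Spo11, Prdm9, Mei4, Dmc1, Meiob, Msh4, Msh5 and Mlh3. Each was found in the table of array values as a feature annotated with that symbol alone, and all 8 were present, each on 1 feature, among 19661 genes measured. Whole testis RNA of 5 wild-type (WT) mice and 5 Crem knock-out (KO) mice had been hybridised to Affymetrix GeneChip Mouse Gene 1.0 ST arrays, 1 mouse per array. All mice, WT and KO, were of the mixed 129Pas x C57Bl/J strain, untreated, 8 weeks old and killed at 0 h circadian time, when the lights came on. The KO mice were Crem-/-, with a neomycin resistance cassette placed across the parts of the gene that encode the DNA-binding domains, in all cells of the animal. The CREM protein regulates transcription downstream of cAMP, with its activator form most abundant in round spermatids, and KO males make no mature sperm. The labels place the WT arrays in batches 2 (3 arrays), 3 (1 array) and 4 (1 array), and the KO arrays in batches 1 (1 array), 2 (1 array) and 4 (3 arrays).

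In early meiotic prophase, PRDM9 marks chromatin at the sites where recombination will start, and SPO11, with accessory proteins such as MEI4, cuts both DNA strands there. The cut ends are resected to single strands, on which the recombinase DMC1 assembles and searches for the homologous chromosome, while MEIOB and its partner SPATA22 bind single-stranded DNA with the general protein RPA. The MSH4 and MSH5 proteins form a heterodimer that stabilises the joined molecules, and MLH3 acts in completing most crossovers. These steps run in spermatocytes, before the round spermatid stage. The comparison of KO with WT testis asks how the RNA of these genes stands where spermatogenesis stops among the spermatids. Whole testis RNA cannot tell fewer cells of a type from less RNA per cell.

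The targeted gene followed the labels. The Crem level was 10.95 ± 0.06 in WT and 9.24 ± 0.15 in KO (SD, n = 5 each), on the log2 scale of the deposited values. That was 3.28-fold lower in KO, with adjusted p = 3.0e-10 in LIMMA and no overlap between the groups. Markers of round spermatids were lower in KO for 7 of 9 genes and higher for 1 (median log2 change -1.75). Their mean levels were 11.13 to 11.28 in WT arrays and 8.56 to 8.94 in KO arrays. All 10 markers of elongating spermatids were lower (median log2 change -5.05). The comparison was broad: at adjusted p under 0.05, 44.3% of all genes were called, with 31.1% higher and 13.2% lower in KO, and the median log2 change of all genes was 0.07. Pearson correlations across genes ran from 0.9936 to 0.9954 between WT arrays, from 0.9919 to 0.995 between KO arrays, and from 0.9363 to 0.9519 between the groups.

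Of the 8 recombination genes, 5 were higher in KO testis and none was lower. Meiob and Msh4 had the largest changes, Spo11, Prdm9 and Msh5 rose by smaller amounts, and Mei4, Dmc1 and Mlh3 did not pass the test. The median log2 change of the 8 genes was 0.27. Against the 31.1% of all genes called higher, the genes called higher were 62.5% of the 8, a difference for which no test was made. The 8 genes were chosen with earlier results of these data known. Of all genes, 13.2% were called lower. With the lowest 25% of features removed, 5 of the 8 and 37.2% of the genes left were called higher. The groups did not overlap, with KO higher, for 3 of the 8 genes (Prdm9, Meiob and Msh4), and for 22.0% of all genes.

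**Figure D1:**
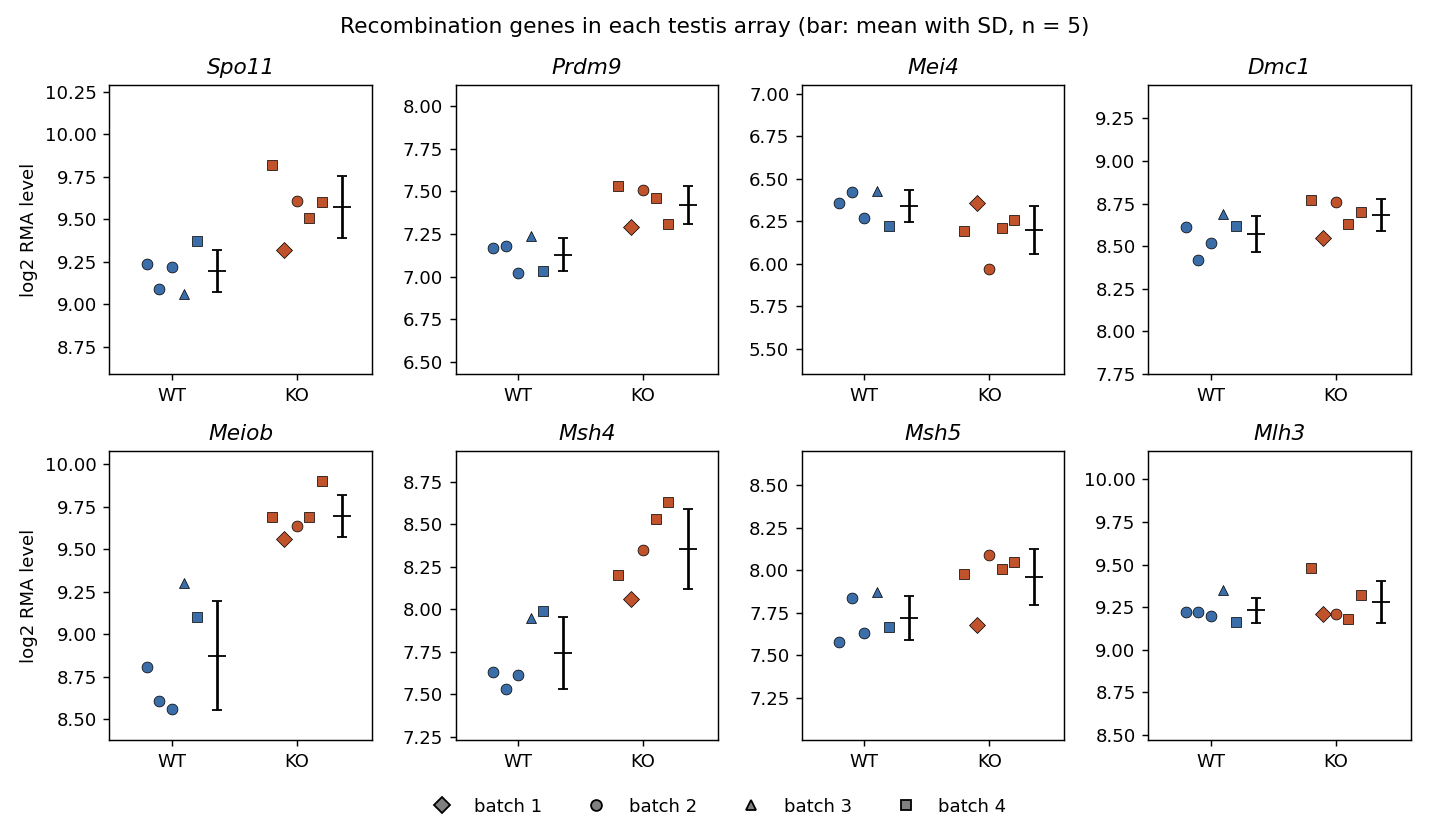
Level of each of the 8 recombination genes in every array, on the log2 scale of the deposited values (y axis, the same span in each panel), for WT and KO testis (x axis). Symbols give the batch, and the bars beside the points are the mean with its SD (n = 5). The WT and KO points are apart for Prdm9, Meiob and Msh4, and interleaved for Mei4, Dmc1 and Mlh3.

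Spo11 encodes the enzyme that cuts the DNA. Its log2 level in WT replicates 1 to 5 was 9.24, 9.09, 9.22, 9.06 and 9.37. In KO replicates 1 to 5 it was 9.82, 9.32, 9.61, 9.51 and 9.60. The groups overlapped through KO replicate 2, the array of batch 1, which lay below WT replicate 5. The group means were 9.20 ± 0.13 and 9.57 ± 0.18, a log2 change of 0.38 ± 0.09 (SE) or 1.3-fold, with adjusted p = 0.0044 in LIMMA.

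Prdm9 encodes the histone methyltransferase that places the breaks. In WT it stood at 7.17, 7.18, 7.02, 7.24 and 7.03. In KO the log2 levels were 7.53, 7.29, 7.51, 7.46 and 7.31. Each KO array was above each WT array, the nearest being KO replicate 2 and WT replicate 4. The change of 0.29 ± 0.07 on the log2 scale, or 1.22-fold, had adjusted p = 0.00447 in LIMMA.

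Mei4, an accessory factor of break formation, was the weakest signal of the 8. Olfactory receptor and keratin-associated genes, which serve here as a gauge of low signal in testis, had a median log2 level of 4.83, and 95% of their features lay below 6.49. Mei4 was below that bound in all 10 arrays, with 6.36, 6.42, 6.27, 6.43 and 6.22 in WT and 6.19, 6.36, 5.97, 6.21 and 6.26 in KO. The groups were interleaved. The log2 change was -0.14 ± 0.08 and did not pass the test (adjusted p = 0.156 in LIMMA).

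Dmc1, the meiosis-specific recombinase, was measured well above that gauge. Its log2 level was 8.61, 8.42, 8.52, 8.69 and 8.62 in the WT arrays. The KO arrays gave 8.77, 8.55, 8.76, 8.63 and 8.70. KO replicates 2 and 4 fell within the range of WT, and the change of 0.11 ± 0.07 did not pass the test (adjusted p = 0.213 in LIMMA).

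Meiob, whose product binds single-stranded DNA and is needed for stable DMC1 foci, had the largest change of the 8. The WT arrays were at 8.81, 8.61, 8.56, 9.30 and 9.10 on the log2 scale. Those of KO were at 9.69, 9.56, 9.64, 9.69 and 9.90. The groups did not overlap, and the spread was wider in WT, where the 3 arrays of batch 2 were all below the 2 arrays of batches 3 and 4. The means were 8.88 ± 0.32 in WT and 9.69 ± 0.13 in KO, a log2 change of 0.82 ± 0.13 or 1.76-fold, with adjusted p = 2.0e-04 in LIMMA. Meiob overlaps Hagh, a gene of glyoxal metabolism, in the RefSeq annotation. Hagh was at 12.50 ± 0.09 in WT and 12.45 ± 0.09 in KO and did not pass the test (log2 change -0.04 ± 0.06, adjusted p = 0.637 in LIMMA).

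Msh4 encodes a subunit of the meiotic MSH4-MSH5 heterodimer. Its WT arrays had log2 levels of 7.63, 7.53, 7.61, 7.95 and 7.99. In the KO arrays it was at 8.20, 8.06, 8.35, 8.53 and 8.63. Every KO array was above every WT array, with KO replicate 2 nearest to WT. The log2 change was 0.61 ± 0.12, or 1.53-fold (adjusted p = 0.00116 in LIMMA).

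Msh5, its partner, changed less. WT replicates 1 to 5 measured 7.58, 7.84, 7.63, 7.87 and 7.67. In KO the log2 levels were 7.98, 7.68, 8.09, 8.01 and 8.05. KO replicate 2 lay among the WT arrays, and the other 4 KO arrays were above all of them. The log2 change was 0.24 ± 0.09, or 1.18-fold, with adjusted p = 0.0387 in LIMMA. The call was narrow: it was lost on leaving out any 1 of 7 arrays (WT replicates 1, 3 and 5, and KO replicates 1, 3, 4 and 5), where the adjusted p ran from 0.0708 to 0.0956, and it held without KO replicate 2, with a log2 change of 0.31 and adjusted p = 0.00368.

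Mlh3 encodes an endonuclease subunit of crossover resolution. It was at 9.22, 9.22, 9.20, 9.35 and 9.16 in WT on the log2 scale. KO had 9.48, 9.21, 9.21, 9.18 and 9.32. Only KO replicate 1 was above all WT arrays. The log2 change of 0.05 ± 0.07 did not pass the test (adjusted p = 0.643 in LIMMA), and its sign turned within batch 2 (-0.01), without KO replicate 1, and with housekeeping genes as the reference (-0.11, or -0.02 without B2m).

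The batches moved with the levels of Meiob and Msh4 within WT. The WT arrays of batches 3 and 4 exceeded those of batch 2 by 0.54 for Meiob (means 9.20 and 8.66) and by 0.38 for Msh4 (means 7.97 and 7.59), and by 0.14 or less for each of the other 6 genes. Within batch 2 the KO minus WT change was 0.98 for Meiob and 0.77 for Msh4, and within batch 4 it was 0.65 and 0.46. Meiob was called in both batches, and Msh4 in batch 2 but not in batch 4 (adjusted p = 0.134 in LIMMA). With batch as a block in the fit, the changes were 0.82 and 0.61, the same as without it. Batch 2 holds 1 KO array and batch 4 holds 1 WT array, which was assumed to vary like the arrays of the other group. Of the 5 genes called higher, 3 were called within batch 2 (Spo11, Meiob and Msh4) and 1 within batch 4 (Meiob), where 11.2% and 9.67% of all genes were called higher.

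KO replicate 2, the array of batch 1, was the lowest KO array for 6 of the 8 genes, the exceptions being Mei4 and Mlh3. It was the lowest KO array for 27.5% of all genes. WT replicate 4, the array of batch 3, was the highest WT array for 6 of the 8 genes and for 20.8% of all genes. Whether the batch or the mouse sets these positions cannot be told apart, since each of these batches holds 1 array. Without KO replicates 2 and 3 the changes were 0.88 for Meiob, 0.71 for Msh4, 0.45 for Spo11, 0.30 for Prdm9 and 0.29 for Msh5, each still called higher.

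The reference level mattered for the smaller changes. Each array was also centred on the mean of 8 housekeeping genes, which shifted the median change of all genes by -0.16 on the log2 scale. Meiob (0.66) and Msh4 (0.45) were still called higher, Spo11 (0.22), Prdm9 (0.13) and Msh5 (0.08) were not, and Mei4 was called lower (-0.30, adjusted p = 0.0241 in LIMMA). With that reference 11.2% of all genes were called higher, and higher genes were 31.2% of those called, against 70.1% with the deposited scale. Among the housekeeping genes, B2m, a subunit of class I histocompatibility molecules, itself rose by 0.81 on the log2 scale. Without B2m the shift was -0.07, and Msh5 alone of the 5 lost its call, at 0.17 (adjusted p = 0.123 in LIMMA). Of all genes, 20.6% were then called higher.

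**Figure D2:**
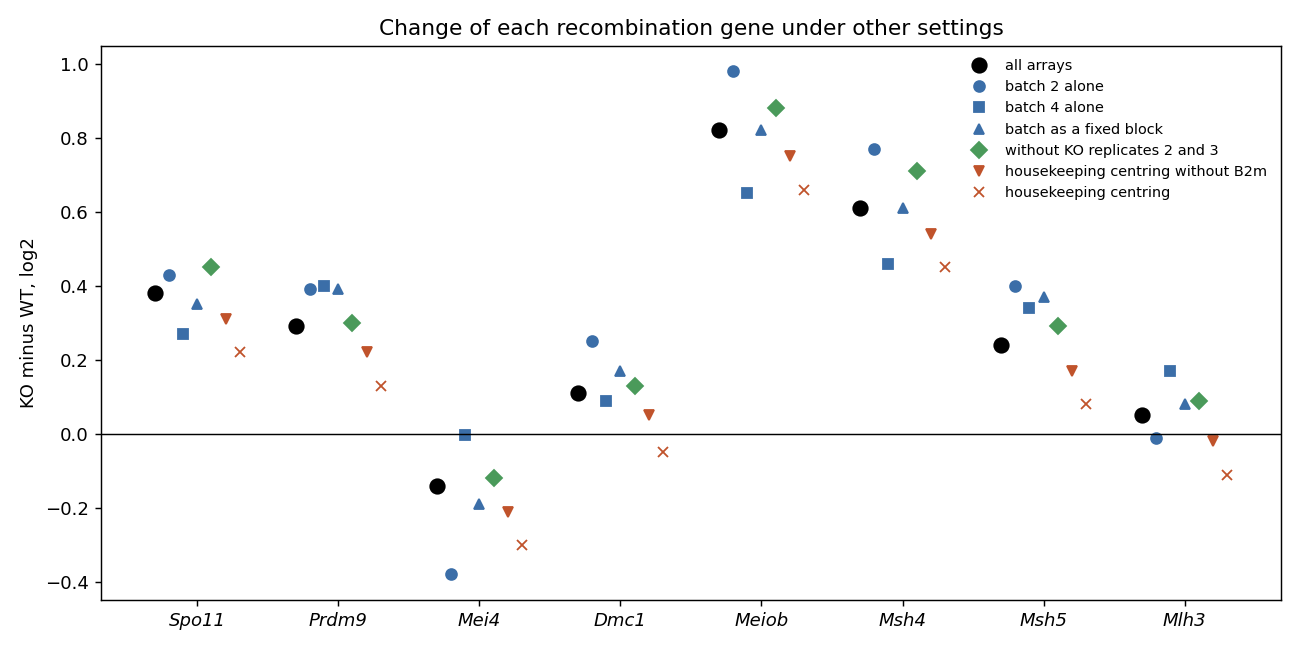
KO minus WT change of each recombination gene on the log2 scale (y axis) with all arrays and under 6 other settings (symbols). Meiob and Msh4 stay above 0.4 in every setting shown, the symbols of Mlh3 and Dmc1 lie on both sides of 0, and those of Mei4 run from -0.38 up to 0.

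Genes whose products work together were set side by side, as a description with no test, since the 5 pairs were picked after their values were known. Meiob rose by 0.82 and Spata22, which encodes its binding partner, by 0.35 (adjusted p = 5.2e-04 in LIMMA). The log2 ratio of Meiob to Spata22 within an array ran from -0.54 to -0.08 in WT and from 0.03 to 0.38 in KO, so the groups were apart. The difference between the changes of this pair was 0.46 over all arrays, 0.54 within batch 2 and 0.32 within batch 4. For Msh4 against Msh5 the difference was 0.37, with 0.36 within batch 2 and 0.12 within batch 4, and the ratios of the groups overlapped. The change of Spo11 exceeded that of Top6bl, which encodes its partner TOPOVIBL and is listed in the annotation as Gm960, by 0.23. The ratios of the groups overlapped, and Gm960 itself did not pass the test (log2 change 0.15, adjusted p = 0.0966 in LIMMA). Mei4 and Rec114, which form a complex in break formation, both failed the test, with changes of -0.14 and 0.04. Like Mei4, Rec114 was a weak signal: its means, 6.41 in WT and 6.45 in KO, were below the 6.49 of the low-signal gauge. The change of Dmc1 was below that of Psmc3ip, which encodes the HOP2 cofactor of strand exchange, by 0.25, and the ratios of the groups overlapped. Psmc3ip rose by 0.36 (adjusted p = 1.0e-04 in LIMMA) and Dmc1 by 0.11 without passing the test.

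A longer list of 54 other genes of meiotic recombination, also chosen with earlier results of these data known, had 46 measured members. Of these, 24 (52.2%) were higher in KO, against 31.1% of all genes, and none was lower, against 13.2%. The median log2 change was 0.21, with a range from -0.13 to 1.29. With the lowest 25% of features removed, 25 of the 46 and 37.2% of the genes left were called higher. On leaving out each array, the count called higher ran from 18 (without KO replicate 1) to 27 (without KO replicate 2). In those 2 settings 27.4% and 33.4% of all genes were called higher. The groups did not overlap, with KO higher, for 17 of the 46 and for 22.0% of all genes. In the single roles the lists are short, and the shares called higher for crossover formation (37.5%) and break processing (2 of 5) were near that of all genes, 31.1%. Among genes of break formation 3 of 6 rose, and those with the largest changes were Iho1 and Zcwpw1. Iho1, which links the break machinery to the chromosome axis, went from 7.32 ± 0.20 to 8.00 ± 0.14 (log2 change 0.68 ± 0.10, adjusted p = 8.7e-05 in LIMMA). Zcwpw1, a reader of the marks that PRDM9 sets, rose by 0.30 ± 0.07.

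Of 5 genes of break processing 2 rose, namely Rad50 (0.44 ± 0.06) and Mre11a (0.31 ± 0.06), which encode subunits of the complex that trims the broken ends. Of 12 genes of strand exchange 8 rose, and the largest changes were those of Rpa1 (0.42 ± 0.05), a subunit of the single-strand binding protein RPA, and of Psmc3ip. Of 8 genes of crossover formation 3 rose. Rnf212b, which encodes a RING finger protein of crossover sites, went from 6.93 ± 0.15 to 7.76 ± 0.21, a change of 0.84 ± 0.10 or 1.78-fold (adjusted p = 1.7e-05 in LIMMA). Tex11, an X-linked gene of crossover formation, rose by 0.31 ± 0.11 with overlapping groups (adjusted p = 0.0342 in LIMMA). That call was lost in batch 2 alone, in batch 4 alone, with both housekeeping references, and on leaving out WT replicate 1, 3 or 5 or KO replicate 1, 3 or 4 (adjusted p = 0.0648 to 0.0878 without 1 array).

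The largest change of the 46 genes was outside the main crossover pathway. Gen1, which encodes a resolvase of Holliday junctions, went from 8.47 ± 0.13 in WT to 9.76 ± 0.06 in KO, a log2 change of 1.29 ± 0.07 or 2.44-fold (adjusted p = 2.9e-09 in LIMMA). Its change was 1.30 within batch 2 and 1.32 within batch 4. Blm, the helicase that takes recombination intermediates apart, rose by 0.49 ± 0.07, and with it 4 of 7 genes of other resolution pathways were higher. Of 8 genes of the axis and checkpoint 4 rose, led by H2ax (0.36 ± 0.08), the histone variant phosphorylated at breaks, and Mdc1 (0.33 ± 0.07), which binds it. The housekeeping reference left 7 of the 46 genes called higher and 1 called lower. Of all 19661 genes, 11.2% were called higher with that reference, and 4845 genes were called lower. With that reference, Zcwpw1, Mre11a, Spata22, Tex11, H2ax and Mdc1 lost their calls among the genes of this list named above. Without B2m in the reference, 16 of the 46 genes and 20.6% of all genes were called higher.

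**Figure D3:**
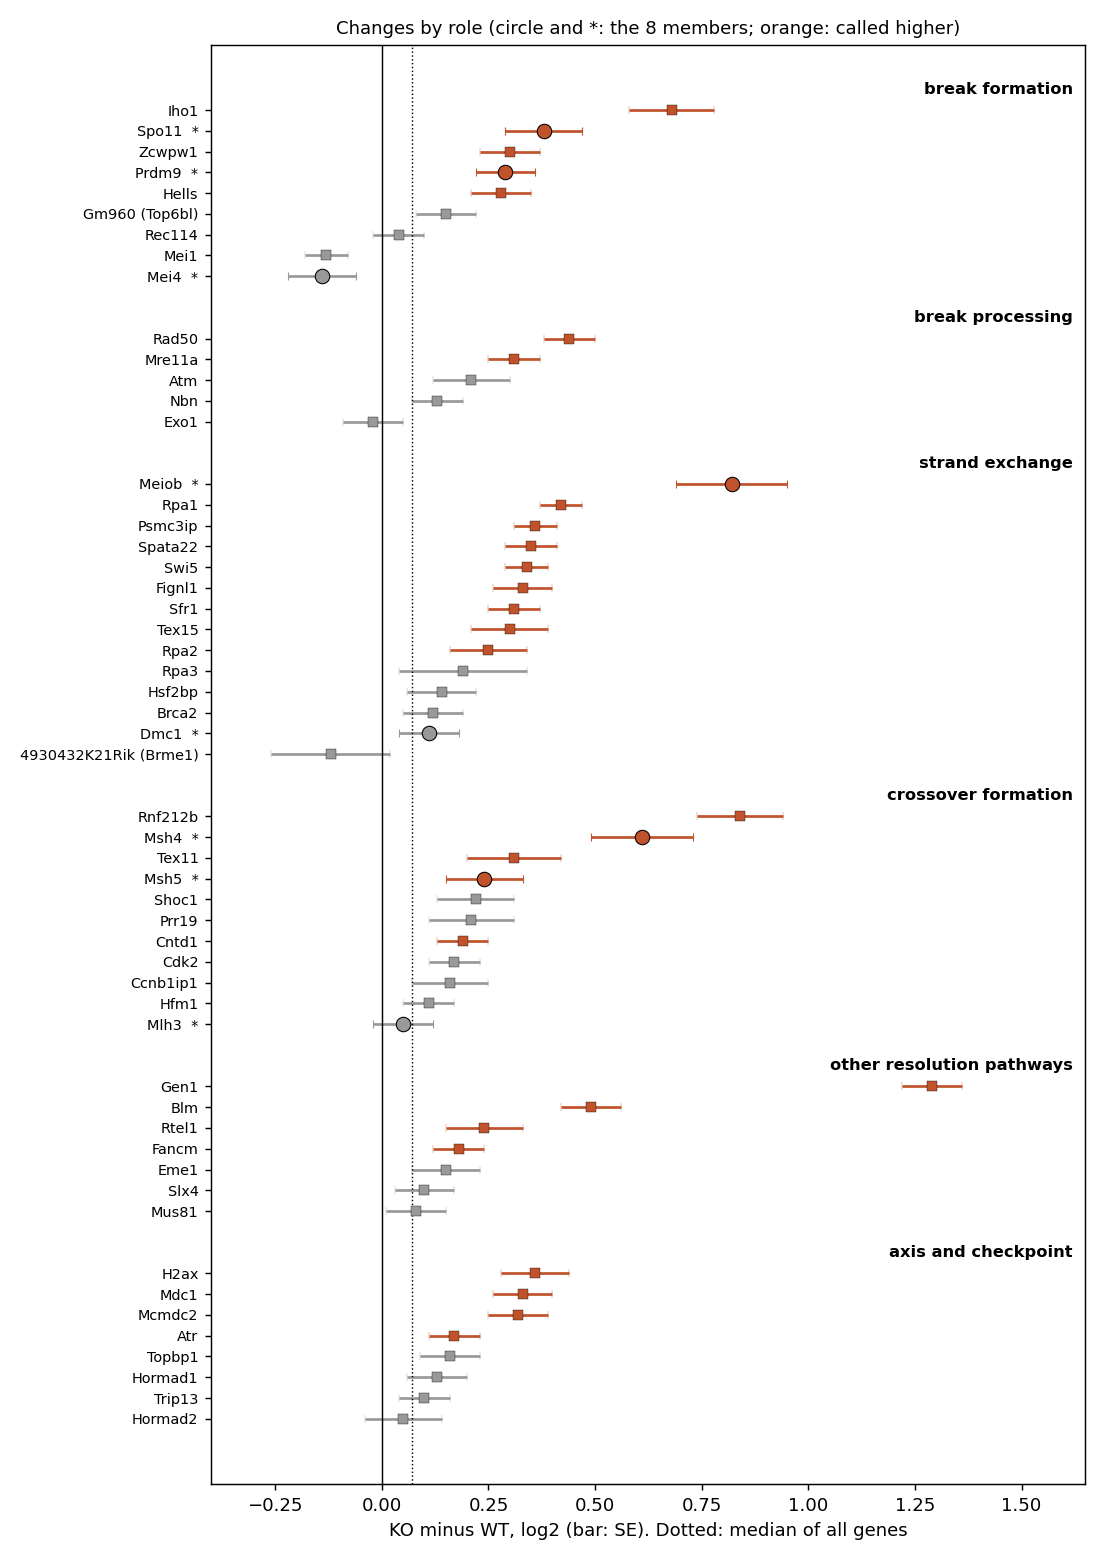
KO minus WT change on the log2 scale with its SE (x axis) for the 8 recombination genes (circles, asterisks) and 46 others (squares), by role. Orange marks genes called higher, the dotted line is the median of all genes at 0.07, and Gen1 stands farthest to the right at 1.29.

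The synaptonemal complex, the protein zip that holds homologous chromosomes together while recombination runs, had genes called in both directions. Of 11 measured genes of this complex and of meiotic cohesin, 6 were higher (54.5%) and 2 were lower, against 31.1% and 13.2% of all genes, with a median log2 change of 0.20. Syce2, which encodes a central element protein, went from 11.08 ± 0.21 to 9.40 ± 0.11 and was 3.22-fold lower (log2 change -1.69 ± 0.10, adjusted p = 5.8e-09 in LIMMA). Rec8, a meiotic cohesin subunit, had a log2 change of -0.57 ± 0.06 (adjusted p = 7.6e-06 in LIMMA). Sycp3, a component of the chromosome axis, rose by 0.36 ± 0.07. Its call was lost with the housekeeping reference (0.20, adjusted p = 0.0896 in LIMMA). None of the 8 recombination genes was called lower on the deposited scale, where 13.2% of all genes were, and no test compared the 2 lists. With the housekeeping reference Mei4 was called lower.

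Cell type markers gave the following values beside these changes, and their part in the results was not tested. Of 10 markers of pachytene spermatocytes 7 were higher and 1 was lower, with a median log2 change of 0.27, the same as that of the 8 recombination genes. Their mean level was 11.53 to 11.65 in WT arrays and 11.70 to 11.79 in KO arrays. Of 12 markers of spermatogonia 4 were higher (33.3%) and 2 lower, near the 31.1% and 13.2% of all genes, and their mean level was 7.69 to 7.78 in WT and 7.69 to 7.83 in KO. Among somatic cell markers, those called higher were 4 of 10 for Sertoli cells (median 0.23), 5 of 6 for Leydig cells (83.3%, median 0.53), 2 of 6 for peritubular myoid cells (33.3%, median 0.15), 7 of 8 for macrophages (87.5%, median 0.48) and 3 of 6 for endothelial cells (median 0.35), and none was called lower. The Sertoli and peritubular shares were near the 31.1% of all genes. Markers of epididymis, tissue that could be left on the testis, were lower for 2 of 5 genes and higher for none.

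**Figure D4:**
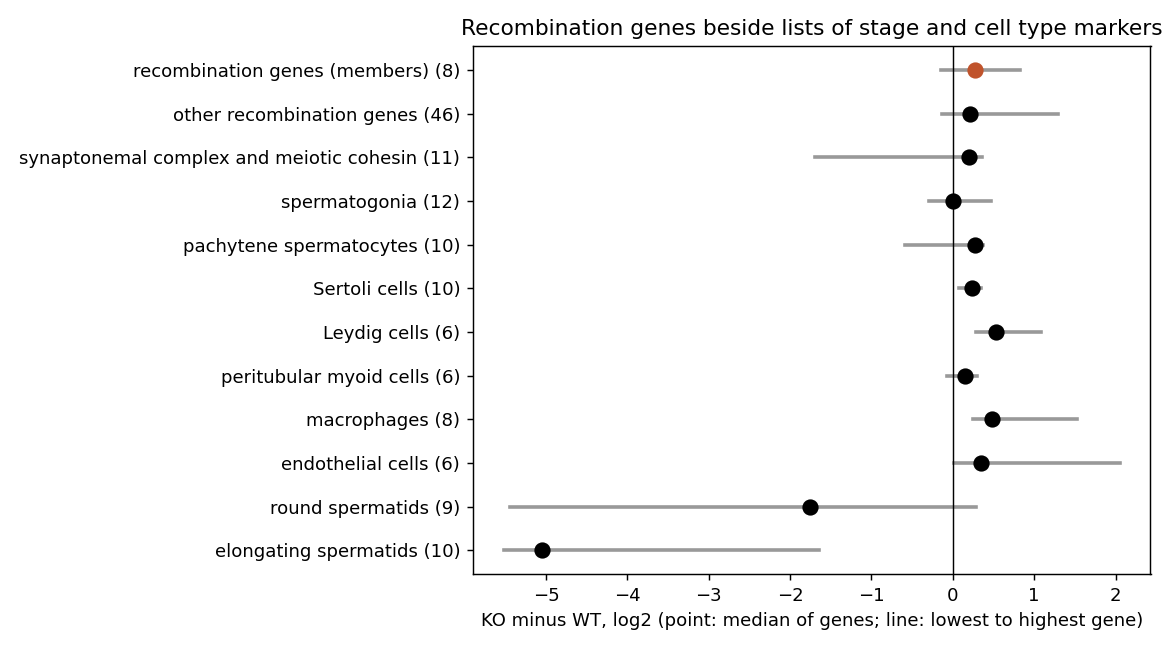
KO minus WT change on the log2 scale (x axis) of the recombination genes beside lists of stage and cell type markers, with the number of genes measured in brackets. Points are medians and lines run from the lowest to the highest gene. The recombination genes and pachytene spermatocyte markers share a median of 0.27, and elongating spermatid markers have a median of -5.05.

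The genes whose pattern over the 10 arrays was most like that of Meiob were Srgap2, Ssxb5 and Wdr63. Their centred log2 levels differed from those of Meiob by 0.142, 0.154 and 0.155 (root mean square). Srgap2, which encodes a GTPase-activating protein, went from 8.73 ± 0.14 to 9.65 ± 0.11. Ssxb5, of a family of near-identical X-linked genes whose probes may be shared, rose by 0.91 ± 0.11, and Wdr63, an axonemal dynein gene, by 0.72 ± 0.08. No recombination gene was called lower, so none served for the other direction.

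CREM binds the cAMP response element, whose full letters are TGACGTCA and whose short form is TGACG. The 250 bases before the gene start, from RefSeq on GRCm38.p6, were searched on both strands for 6 of the 8 genes (Prdm9, Mei4, Dmc1, Msh4, Msh5 and Mlh3), in 8 windows. None held the full element, which 1.77% of 27025 genes had in such a window. The short form, which every full element contains, was in 1 of the 6 genes, Msh5, and in 19.8% of all genes. The stretch around it is shown because it is the only match in the set. It lies on the minus strand at chr17:35046654-35046738, upstream of the gene, and the match, in capitals, begins 76 bases before the gene start.
Msh5: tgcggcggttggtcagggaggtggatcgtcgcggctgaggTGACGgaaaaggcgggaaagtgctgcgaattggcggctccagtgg
Msh5 was the gene with the smallest change among the 5 called higher. A match of letters is not a measured binding site.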

How the data were processed

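The deposited values are log2 levels that the authors made from the array scans by RMA in the XPS package, with quantile normalization between arrays, a background from antigenomic probes and probes grouped per transcript. The package version and genome build are not given in the sources used here. The table has 35557 rows, and the 9868 with no value in any array were left out, which leaves 25689 features. The platform annotation gave 20777 of these 1 symbol, 232 several and 4680 none, and 20696 matched RefSeq names. A gene is its feature with the highest mean, which gave 19661 genes, 564 of them with over 1 feature. KO and WT were compared with limma 3.58.1 in R 4.3.3 (lmFit and eBayes), and p-values were adjusted by Benjamini-Hochberg over all 25689 features, with calls at 0.05. Precision is limited by how many arrays there are; over genes, the SE of a log2 change had a median of 0.0755. The procedure was tested on simulated data.

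Samples were grouped by their labelled genotype. The labels name an animal for each array, and replicate numbers pair nothing. The genes and lists were chosen with earlier results of these data known. The genes named are the 8 recombination genes, Crem, the 2 largest changes in each role of the longer list, 3 of the synaptonemal list, and the 3 closest patterns to the called gene with the largest change in each direction. Hagh, B2m, Mei1 and the partner genes were added after their values were seen. Of the longer list, 8 genes were not analysed here. In RefSeq, Spo11, Prdm9, Mei4, Meiob, Msh4, Msh5 and Mlh3 overlap other gene models (for all but Meiob, models with Gm or Mir names only). The study's RNA integrity measure was higher in every KO than in every WT sample, and its part in the results was not tested. Alternatives were another quantile normalization, 3 other centrings, batch as a fixed or random block (correlation 0.021), batches 2 and 4 alone, the trend and robust options, removal of the lowest 25% of features, the mean of a gene's features, each array left out, and KO replicates 2 and 3 left out.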

Additional observations from a re-analysis of the deposited data

Results flagged for a closer look

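Of 54 groups of 5 arrays examined for a single array far from the rest, 2 had one, and chance gives about 1 in 20. Msh5 in KO replicate 2 was at 7.68 on the log2 scale, against 7.98 to 8.09 in the other KO arrays. Syce2 in WT replicate 2 was at 11.45, against 10.93 to 11.05 in the other WT arrays.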

How the results depend on the processing

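Over the alternatives tried, 153 of 176 values for the 8 recombination genes kept their direction and their side of the threshold. Housekeeping centring gave 2 recombination genes higher and 1 lower, a median change of 0.11, and changes of 0.22 for Spo11, 0.13 for Prdm9, 0.08 for Msh5, -0.30 for Mei4 (now called), -0.05 for Dmc1 and -0.11 for Mlh3. It left 7 other recombination genes higher and 1 lower. Of all 19661 genes, 2194 (11.2%) were higher and 4845 were lower in that setting. Without B2m among the housekeeping genes, 4055 of all genes were higher and 3148 were lower. Msh5 was then at 0.17 and Mlh3 at -0.02, and 16 other recombination genes were higher and 1 was lower. The gene called lower was Mei1, of break formation, with both housekeeping references (-0.29, and -0.20 without B2m). After another quantile normalization the count lower was also 1, and whether that gene was Mei1 was not examined. Batch 2 alone gave 3 recombination genes and 10 others higher, with Prdm9 at 0.39, Msh5 at 0.40 and Mlh3 at -0.01. Batch 4 alone, with 1 WT array, had Spo11 at 0.27, Prdm9 at 0.40, Msh4 at 0.46 and Msh5 at 0.34. Each batch alone has fewer arrays, and the cause of the other differences was not tested. On leaving out each array, the change of Msh5 ran from 0.21 to 0.31 and that of Mlh3 from -0.0029 (without KO replicate 1) to 0.08. The number of other recombination genes called lower ran from 0 to 1, with 1 without WT replicate 5. Of 440 values for the 20 other named genes, 409 kept their direction and side, 30 lost the call and 1 gained it.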
